A study of Mus musculus with 24 samples.

Results

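The Hox cluster genes are the 39 mouse genes whose symbol is Hox, a cluster letter from a to d and a paralog number, and they were chosen by that symbol alone from the 51912 genes counted in each RNA-seq table. They fall into the Hoxa cluster (11 genes, chromosome 6), the Hoxb cluster (10 genes, chromosome 11), the Hoxc cluster (9 genes, chromosome 15) and the Hoxd cluster (9 genes, chromosome 2). The study asked how pioneer transcription factors affect DNA methylation at their binding sites, and its RNA-seq data give the expression background of the cells. The RNA-seq series holds 9 libraries, with 3 biological replicates in each of 3 groups. ESCs are wild type TC-1 mouse embryonic stem cells with the strain label C57BL/6 X 129S5. NPs are cells of the same strain label that were grown as aggregates, treated with retinoic acid and labelled neuronal progenitors. TET TKO ESCs lack TET1, TET2 and TET3, the enzymes that oxidise methylated cytosine, and carry the strain label C57BL/6 X 129/sv. Since their strain label and sequencing depth differ from those of ESCs, the knockout, the line and the depth cannot be told apart in that comparison, and NPs are a differentiated culture that can hold several cell types.

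Hox genes encode homeodomain transcription factors that give cells their position along the head-to-tail axis. Their order along each cluster mirrors the order of their expression domains, with low paralog numbers at the 3′ end acting furthest towards the head (anterior) and high numbers at the 5′ end furthest towards the tail (posterior). In pluripotent cells the clusters are held by Polycomb repressors, and retinoic acid, acting through nuclear receptors that bind repeated half-sites in the DNA, is a classical inducer of the 3′ genes in the hindbrain and spinal cord.

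The libraries held 20519702 to 23976914 assigned reads in ESCs and NPs and 80704741 to 93210102 in TET TKO ESCs, so the latter detect weak transcripts more readily. Levels are given as RPKM, the reads per kilobase of exon and per 1000000 reads with library sizes scaled by TMM, and a gene was called changed at a fold change of at least 3 and a Benjamini-Hochberg adjusted p under 0.001 in edgeR's quasi-likelihood test. Tet1 fell by 2.38 and Tet2 by 3.05 on the log2 scale in TET TKO ESCs (edgeR adjusted p = 7.0e-05 and 1.9e-05), while Tet3, under 1 RPKM in ESCs and TET TKO ESCs, was not tested. All 8 neural progenitor markers were called higher and all 7 pluripotency markers lower in NPs than in ESCs, so the NP label holds for its markers. Other markers changed too. Of 7 endoderm markers 6 were tested and 5 called higher in NPs. Of 10 mesoderm markers 7 were tested, 3 called higher and 1, Tcf15, called lower (log2 fold change −2.74). Of all tested genes, 12.4% were called higher and 9.98% lower. Summed levels in NPs were 32.1 to 54.5 RPKM for endoderm (2.09 to 3.18 RPKM in ESCs) and 12.1 to 44.7 RPKM for mesoderm (27.4 to 32.0 RPKM in ESCs). None of these marker genes was at 0 counts in NPs. The part of these cells in the Hox values was not tested, and in bulk RNA fewer cells with a transcript and less transcript per cell cannot be told apart.

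The anterior and central Hox genes of all 4 clusters rose in NPs, as did 3 posterior genes, while most posterior genes stayed near 0. All 39 Hox genes together took 10.2 to 14.3 reads per 1000000 in ESCs and 2466 to 3120 in NPs. The summed Hox level was 5.72, 6.06 and 4.54 RPKM in the ESC libraries and 1190, 896 and 969 RPKM in the NP libraries. With a mean of at least 1 RPKM as the limit (a log2(1 + RPKM) of at least 1), the ESCs expressed 1 Hox gene, the NPs 26 and the TET TKO cells 0. Hoxc9 at 1.08 ± 0.75 RPKM (SD, n = 3) lay just inside that limit in NPs, and Hoxd9 at 0.838 ± 0.495 RPKM just outside it.

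**Figure D1:**
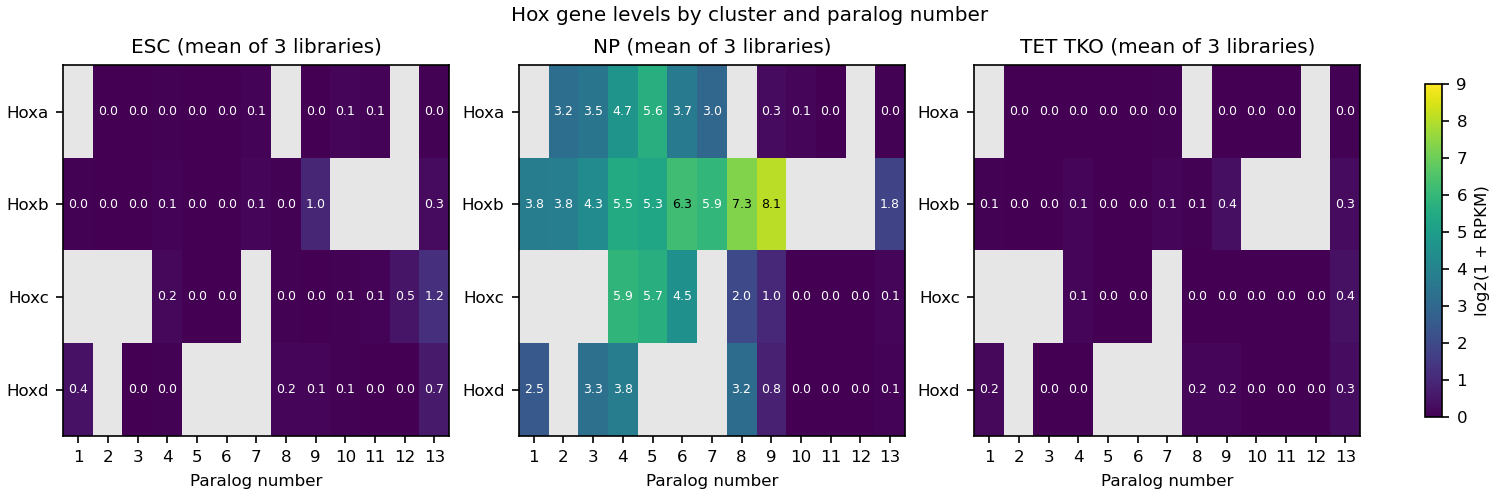
Mean log2(1 + RPKM) of each Hox gene over 3 libraries, with clusters in rows and paralog numbers in columns for ESCs, NPs and TET TKO ESCs (grey: no gene with that number, or not drawn). Counting members not drawn, NPs had 26 of 39 genes at a mean of 1 RPKM or more, with the highest values at Hoxb8 and Hoxb9, whereas ESCs and TET TKO ESCs stay near 0 apart from a few genes.

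In the comparison of NPs with ESCs, 28 Hox genes reached 1 RPKM in at least 1 library and were tested. Of these, 26 were called higher, where 12.4% of all 15197 tested genes were, and 1 was called lower, where 9.98% of all tested genes were. The filter let most of these genes in through their NP level, so the count of tested genes is not a count of all members. The remaining 11 members, Hoxa9, Hoxa10, Hoxa11, Hoxa13, Hoxc10, Hoxc11, Hoxc12, Hoxd10, Hoxd11, Hoxd12 and Hoxd13, were below the filter. The median log2 fold change was 9.03 over the 28 tested Hox genes and 0.03 over all tested genes. Over the 37 Hox genes with more than 3 counts in either group, the median log2 ratio of summed counts was 7.99, with the 4 genes at 0 counts in ESCs and the 1 gene at 0 counts in NPs set to a floor of 3 counts over the group. All 3 NP libraries lay above every ESC library for 28 of these 37 genes, against 29.3% of all genes above the same floor, and below every ESC library for 3 of them, against 32% of all genes. By position, all 8 anterior genes (paralogs 1 to 3) and all 15 central genes (paralogs 4 to 8) were called higher. Of the 16 posterior genes (paralogs 9 to 13), 3 were called higher (Hoxb9, Hoxb13 and Hoxc9), 1 was called lower (Hoxc13) and 1 was tested and not called (Hoxd9).

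**Figure D2:**
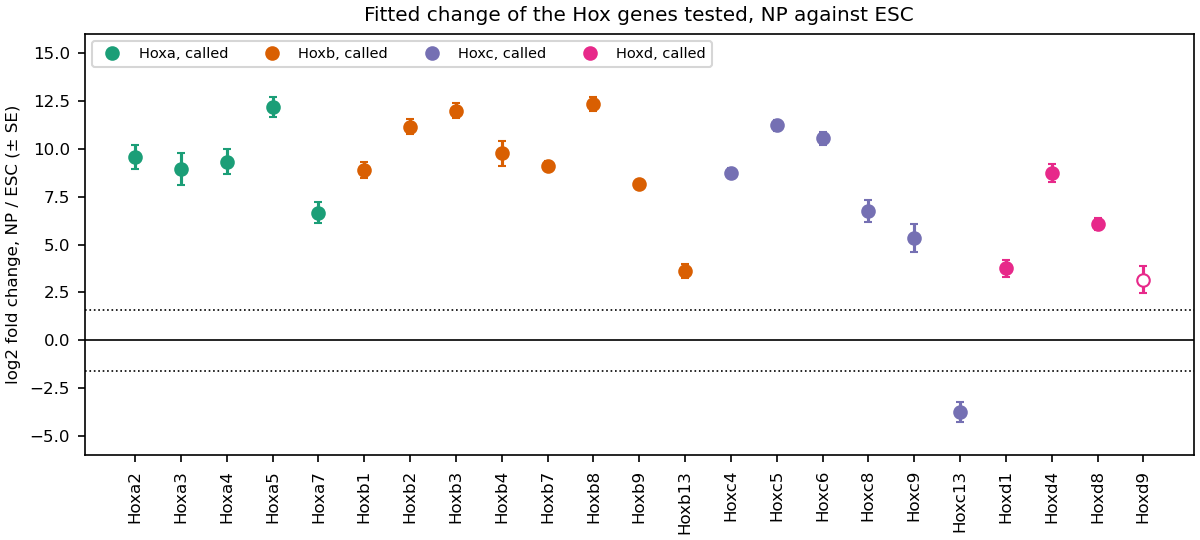
Fitted log2 fold change of NPs over ESCs, with its SE, for 23 tested Hox genes that had at least 1 count in ESCs, in cluster order (filled: called; open: not called; dotted lines: a fold change of 3 in either direction). The values of Hoxa2, Hoxa5, Hoxb2, Hoxb3 and Hoxc6 rest on 1 or 2 counts in ESCs. All genes but Hoxc13 lie above 0, and the posterior genes Hoxb13, Hoxc9 and Hoxd9 lie lower than every central gene drawn of their clusters.

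Because the NPs had been treated with retinoic acid, the clusters and 20 kb on either side were searched for the direct repeat known as DR5, the classical retinoic acid response element. A match was any pair of half-sites (AGGTCA or the variant AGTTCA, or the same with another first base, GGGTCA or the variant GGTTCA) on the same strand with 5 bases between them, on either strand. The search found 7 matches in 652 kb, or 1.07 per 100 kb, where the 4 whole chromosomes held 0.353 per 100 kb. The matches are few, and those in Hoxa3, Hoxb3 and Hoxd3 are so alike that they may not be independent. Whole chromosomes are not matched to the clusters in gene density or base composition, and an enrichment was not tested. The Hoxa and Hoxb windows held 3 matches each, the Hoxd window held 1 and the Hoxc window held 0. The 5 sequences shown were read from the mouse genome GRCm38.p6, the build of the count tables, and are given 5′ to 3′ on the strand of the repeat with the half-sites in capitals, because 4 of them lie on the strand of the Hox genes beside or inside anterior members and share their half-sites.
Hoxb, chr11:96372776-96372792, plus strand, 4.53 kb past the 3′ end of Hoxb1: GGTTCAtagagAGTTCA
Hoxa, chr6:52175533-52175549, minus strand, intron of Hoxa3 and inside Hoxaas3: GGTTCAagaagAGTTCA
Hoxb, chr11:96341236-96341252, plus strand, intron of Hoxb3 and inside Gm11536: GGTTCAagaagAGTTCA
Hoxd, chr2:74741540-74741556, plus strand, intron of Hoxd3 and inside Gm28230: GGTTCAagcagAGTTCA
Hoxb, chr11:96212029-96212045, minus strand, between Hoxb13 and Hoxb9: AGGTCAgggaaGGGTCA
The sites in the introns of Hoxa3 and Hoxb3 were identical over 17 bases, and the site in the intron of Hoxd3 differed from them by 1 substitution in the spacer, A9C (counted from 1 at the 5′ end of the site). The site past Hoxb1 differed from the Hoxa3 site by 3 spacer substitutions. The paralogs around these repeats, Hoxb1, Hoxa3, Hoxb3 and Hoxd3, were all called higher in NPs. So was every other anterior and central Hox gene, so the calls do not set the genes near a match apart. In the Hoxc window, which held no match, 5 genes were called higher as well. A match describes letters of the reference genome, and binding was not measured in these libraries.

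**Figure D3:**
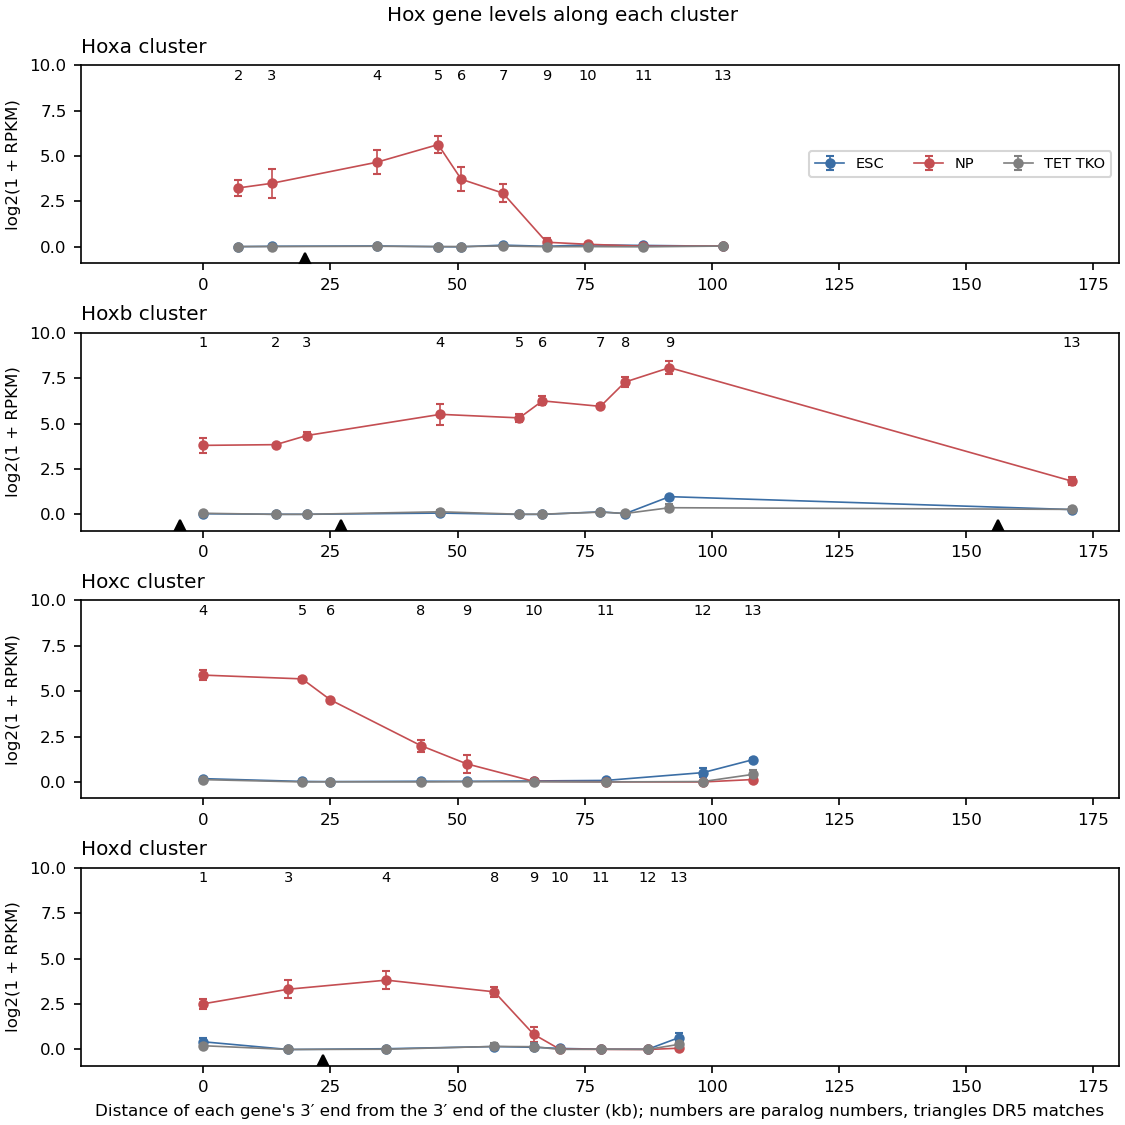
Mean log2(1 + RPKM) with its SD (n = 3) of the Hox genes drawn against the distance of its 3′ end from the 3′ end of the cluster, for ESCs, NPs and TET TKO ESCs (numbers: paralog number; triangles: the 5 DR5 matches shown). The mean NP level falls below 1 RPKM past paralog 7 in Hoxa, paralog 9 in Hoxc and paralog 8 in Hoxd, while in Hoxb it is highest at paralog 9.

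In the Hoxa cluster, 7 genes were called higher in NPs and the 4 posterior genes were below the filter. Hoxa2, the selector of the second pharyngeal arch and of hindbrain segments, had 0, 0 and 1 counts in ESCs and 472, 277 and 308 counts in NPs (12.5, 6.42 and 7.49 RPKM). With 1 count in ESCs, its ratio of 1041 had a 95% counting interval from 186 to 41140. Every NP library thus lay far above every ESC library. Hoxa3, required for thymus and parathyroid, had 9, 0 and 0 counts in ESCs and 20.2, 7.15 and 7.38 RPKM in NPs (log2 fold change 8.95 ± 0.85, with its SE). All 9 ESC counts lay in replicate 1, without which Hoxa3 was at least 1049-fold higher against the floor, while its log2 fold change was 8.31 without ESC replicate 3 and 8.27 without NP replicate 1. Hoxa4, which acts in the cervical spine, had 0, 1 and 3 counts in ESCs and 41.4, 16.3 and 20.9 RPKM in NPs (log2 fold change 9.33 ± 0.64). Without ESC replicate 3 a single ESC count of Hoxa4 was left, with a ratio of 1763 and a 95% counting interval from 316 to 69640. Hoxa5, a regulator of cervical and lung development, was the highest Hoxa gene in NPs at 68.7, 36.1 and 46.2 RPKM, with 1, 0 and 0 counts in ESCs. Its ratio of 6305 had a 95% counting interval from 1131 to 249058, which a single ESC count leaves wide. Without the library that held that count, Hoxa2 was at least 221-fold and Hoxa5 at least 1441-fold higher. Hoxa6 had 0 counts in all ESC libraries and 20.6, 7.96 and 11.0 RPKM in NPs, at least 254-fold higher against a floor of 3 counts over the ESC group. Hoxa7 measured 0.0817, 0.111 and 0.0141 RPKM in ESCs and 10.5, 5.09 and 5.72 RPKM in NPs (log2 fold change 6.67 ± 0.54). The edgeR adjusted p-values of the 7 called genes ran from 9.44e-07 for Hoxa5 to 8.37e-05 for Hoxa6. All 7 were highest in NP replicate 1, whose summed Hoxa level of 208 RPKM compares with 98.0 and 120 RPKM in the other NP libraries, and all 7 calls held without that library.

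Past Hoxa7 the level in NPs dropped steeply. Hoxa9, a gene of the thoracic and lumbar spine and of blood progenitors, had 3, 3 and 2 counts in ESCs and 51, 16 and 8 counts in NPs, so that the groups did not overlap, yet its NP mean was 0.203 ± 0.198 RPKM and it was below the filter. Hoxa10, a lumbar patterning gene, had 10, 4 and 3 counts in ESCs and 13, 5 and 5 in NPs, and the groups overlapped. Hoxa11 and Hoxa13, genes of the limb and urogenital tract, had at most 6 counts in any ESC or NP library. Thus the border of expression in NPs lay between Hoxa7 at 7.10 ± 2.95 RPKM and Hoxa9, which follow each other in the cluster because the mouse has no Hoxa8.

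The Hoxb cluster carried most of the Hox RNA of NPs, with 69.4 ± 2.7% of the summed Hox RPKM (SD, n = 3), and all of its 10 genes were called higher. Hoxb1, which sets the identity of a hindbrain segment, had 1, 2 and 1 counts in ESCs and 11.8, 18.0 and 10.1 RPKM in NPs (log2 fold change 8.89 ± 0.41). Hoxb2, a gene of the neighbouring hindbrain segments, had 0, 0 and 1 counts in ESCs and 13.7, 12.7 and 13.7 RPKM in NPs, with a ratio of 3145 and a 95% counting interval from 564 to 124276. Its NP mean of 13.3 ± 0.59 RPKM (SD, n = 3) had little spread between libraries. Hoxb3 had 0, 1 and 0 counts in ESCs and 20.5, 16.2 and 21.6 RPKM in NPs, with a ratio of 5569 and a 95% counting interval from 999 to 220011. It shares 52.9% of its exonic bases with the antisense transcript Hoxb3os, and Hoxb2 shares 27.3%. Reads there were counted for neither gene, so the RPKM values of Hoxb3 and Hoxb2 understate their levels. Hoxb4, used to expand blood stem cells, had 1, 8 and 0 counts in ESCs and 30.5, 41.8 and 69.3 RPKM in NPs (log2 fold change 9.76 ± 0.64), with NP replicate 1 lowest here and not highest as in the Hoxa cluster. Of the 9 ESC counts of Hoxb4, 8 lay in replicate 2, without which its ratio was 5596 with a 95% counting interval from 1004 to 221000, and without ESC replicate 3 its log2 fold change was 9.12. Without the library that held their only ESC count, Hoxb2 was at least 668-fold and Hoxb3 at least 1258-fold higher. Hoxb5 and Hoxb6, genes of the brachial and thoracic level, had 0 counts in all 3 ESC libraries. Hoxb5 reached 45.3, 32.6 and 39.5 RPKM in NPs, at least 2443-fold higher against the floor of 3 counts over the group. Hoxb6 reached 66.3, 70.2 and 91.3 RPKM, at least 3374-fold higher.

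Hoxb7 lay below Hoxb6 in every NP library, and from Hoxb7 to Hoxb9 the level rose. Hoxb7 measured 0.0913, 0.0889 and 0.132 RPKM in ESCs and 58.2, 58.2 and 66.2 RPKM in NPs (log2 fold change 9.12 ± 0.21, edgeR adjusted p = 2.48e-07). Hoxb8, a gene of the thoracic spinal cord, had 3, 2 and 0 counts in ESCs and 183, 129 and 159 RPKM in NPs (log2 fold change 12.33 ± 0.37). Its ratio was 9538 without ESC replicate 1 (95% counting interval 2640 to 78760) and its log2 fold change 11.71 without ESC replicate 3. Hoxb9, which patterns the ribs and thoracic motor columns, was the highest gene of its cluster in ESCs and the highest of all 39 Hox genes in NPs. It measured 1.02, 0.907 and 0.980 RPKM in ESCs and 359, 249 and 219 RPKM in NPs (log2 fold change 8.13 ± 0.25, edgeR adjusted p = 2.99e-07). Hoxb9 and Hoxb8 alone made up 27.1% and 15.4% of the mean summed Hox RPKM of NPs, and only 68 of the 12412 genes expressed in NPs had a higher mean RPKM than Hoxb9. Hoxb13, a gene of the tail bud and prostate that lies far from the rest of its cluster, measured 0.256, 0.228 and 0.129 RPKM in ESCs and 2.26, 3.25 and 2.25 RPKM in NPs (log2 fold change 3.64 ± 0.37). It was the only gene of paralog number above 9 that was called higher.

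**Figure D4:**
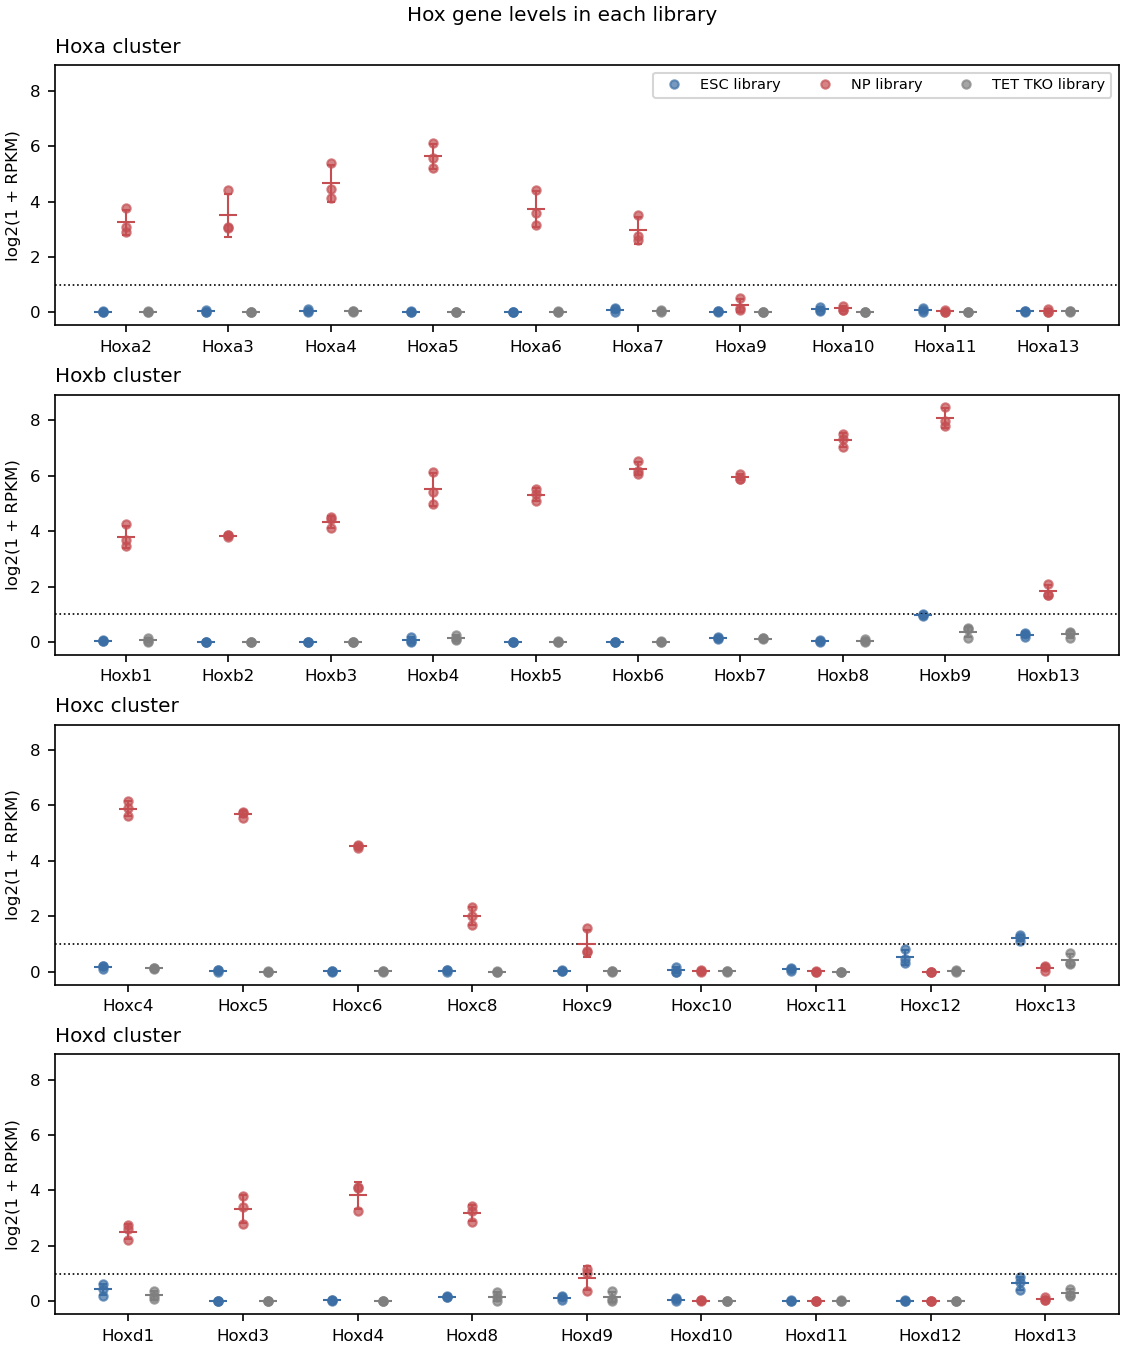
log2(1 + RPKM) of the Hox genes drawn in each of the 9 libraries (points), with the mean and SD of each group (bars, n = 3; dotted line: the limit of expression). The 3 NP libraries of each anterior and central gene drawn stand apart from the ESC and TET TKO libraries. The spread between NP libraries is narrow in Hoxb2, Hoxb7 and Hoxc6. It is wider in the anterior and central Hoxa genes drawn, and also in Hoxb4, Hoxc9 and Hoxd3.

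The start of transcription of Hoxb8, a central gene with one of the largest changes, and that of Hoxb1, the most anterior Hoxb gene, are shown for the short motifs they hold. RefSeq windows of 300 bases (250 before to 50 after the start, GRCm38.p6) were at hand for 22 of the 39 Hox genes, in 24 windows. The motifs searched on both strands were TGATNNAT, a composite site of PBX and HOX proteins, TTTATG, a site of CDX proteins, and TATAAA, the TATA box. Matches are in capitals, and none of those printed overlap each other.
Hoxb8, chr11:96281655-96281954, plus strand: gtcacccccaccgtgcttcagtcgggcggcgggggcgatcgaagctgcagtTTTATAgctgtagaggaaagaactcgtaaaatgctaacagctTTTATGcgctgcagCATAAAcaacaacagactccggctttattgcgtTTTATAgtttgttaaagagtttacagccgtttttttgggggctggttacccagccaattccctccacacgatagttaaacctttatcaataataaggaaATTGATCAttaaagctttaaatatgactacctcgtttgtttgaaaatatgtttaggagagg
Hoxb1, chr11:96365508-96365807, plus strand: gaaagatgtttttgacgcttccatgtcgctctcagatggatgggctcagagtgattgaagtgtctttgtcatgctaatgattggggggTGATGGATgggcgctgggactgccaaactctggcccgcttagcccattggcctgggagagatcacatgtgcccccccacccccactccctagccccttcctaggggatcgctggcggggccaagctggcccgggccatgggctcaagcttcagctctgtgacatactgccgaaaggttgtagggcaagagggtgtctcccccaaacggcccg
The PBX-HOX motif was in the windows of 4 Hox genes (Hoxa2, Hoxb1, Hoxb8 and Hoxd11), or 16.7% of the 24 Hox windows, and in 8.85% of all 32851 windows. TTTATG was in the windows of 5 Hox genes, 20.8% of Hox windows against 11.9% of all windows, and TATAAA in 16.7% against 13.6%. DR5 matches as defined above were in 0 of the Hox windows and in 0.0974% of all windows. CpG dinucleotides numbered 4 to 45 in the Hox windows with a median of 14.5, against a median of 7 over all windows. The windows of Hoxa13 (45 CpGs) and Hoxd13 (37 CpGs), which had 0.0336 ± 0.0439 and 0.051 ± 0.043 RPKM in NPs, held the most CpGs. The fewest, 4 CpGs, were in the windows of Hoxd4, at 13.6 ± 4.5 RPKM in NPs, and of Hoxa9 and in 1 of the windows of Hoxd11, at 0.203 and 0.00342 RPKM.

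In the Hoxc cluster the level in NPs fell from the 3′ to the 5′ end. Hoxc4, the most 3′ gene of this cluster in the mouse, measured 0.165, 0.160 and 0.0792 RPKM in ESCs and 69.8, 58.2 and 48.0 RPKM in NPs (log2 fold change 8.75 ± 0.27). Hoxc5 had 2, 2 and 0 counts in ESCs and 52.1, 52.8 and 45.7 RPKM in NPs (log2 fold change 11.21 ± 0.31, and 10.59 without ESC replicate 3). Hoxc6, which marks the level of the forelimb, had 1, 1 and 0 counts in ESCs and 21.3, 22.1 and 22.5 RPKM in NPs, with a ratio of 1794 and a 95% counting interval from 496 to 14817. Hoxc4 and Hoxc5 overlapped in their NP levels, while Hoxc6 lay below both in every library. Hoxc8, a gene of the thoracic level, had 2, 3 and 0 counts in ESCs and 3.05, 4.01 and 2.18 RPKM in NPs (log2 fold change 6.76 ± 0.59). Its ratio was 201 without ESC replicate 2 (95% counting interval 55.4 to 1664) and its log2 fold change 6.14 without ESC replicate 3. Hoxc9, which sets the thoracic motor columns, had 1, 2 and 1 counts in ESCs and 0.676, 1.95 and 0.622 RPKM in NPs (log2 fold change 5.33 ± 0.72, edgeR adjusted p = 2.72e-04). NP replicate 2 held most of the Hoxc9 reads, and the call was lost without it because the gene then fell below the filter. It was also lost without any single ESC library, with adjusted p-values of 0.00129 to 0.00243 and log2 fold changes of 5.10 to 5.72.

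The 5′ end of the Hoxc cluster went the other way. Hoxc13, which acts in hair, nail and tail, was the only Hox gene with a mean above 1 RPKM in ESCs, at 1.37, 1.49 and 1.16 RPKM, and measured 0.0191, 0.134 and 0.140 RPKM in NPs. It was the only Hox gene called lower (log2 fold change −3.73 ± 0.51, edgeR adjusted p = 3.01e-04). This call was lost without any of the ESC libraries or NP replicate 3, with adjusted p-values of 0.00115 to 0.00166 and log2 fold changes of −3.66 to −4.07. Hoxc12, its neighbour, had 5, 8 and 19 counts in ESCs and 0 in all NP libraries, at least 10.8-fold lower against the floor of 3 counts over the NP group. Hoxc11 had 3, 4 and 1 counts in ESCs and 0, 1 and 0 in NPs, with a ratio of 0.123 and a 95% counting interval from 0.00277 to 0.918. Hoxc10, by contrast, had 5 counts in a single ESC library and 3 over the NP libraries.

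In the Hoxd cluster 4 genes were called higher, and the cluster held the smallest share of the summed Hox RPKM of NPs, 3.59 ± 0.47% (1.42% without the Hox genes with over 50% of exonic bases shared). Hoxd1, the counterpart of Hoxb1, measured 0.530, 0.369 and 0.153 RPKM in ESCs and 5.02, 5.66 and 3.66 RPKM in NPs (log2 fold change 3.76 ± 0.43). Hoxd3 had 0 counts in all ESC libraries and 12.7, 5.90 and 9.48 RPKM in NPs, at least 873-fold higher. Hoxd4 had 1, 2 and 3 counts in ESCs and 16.6, 8.47 and 15.9 RPKM in NPs (log2 fold change 8.73 ± 0.45). Hoxd3 and Hoxd4 share 62.9% and 52.3% of their exonic bases with other genes (62.4% and 52.3% with each other and the transcript Gm28230 on the same strand), so their levels are uncertain and their RPKM values leave out shared reads. Hoxd8 measured 0.137, 0.100 and 0.119 RPKM in ESCs and 9.75, 6.24 and 8.48 RPKM in NPs (log2 fold change 6.07 ± 0.30). Hoxd9, a gene of the lumbar level and the limb, had 1, 6 and 6 counts in ESCs and 56, 52 and 14 counts in NPs. It did not pass the test (log2 fold change 3.17 ± 0.70, edgeR adjusted p = 0.00409), while DESeq2 called it higher and every NP library lay above every ESC library. Hoxd10, Hoxd11 and Hoxd12 had at most 3 counts in any ESC or NP library. Hoxd13, the digit gene at the 5′ end, had 44, 33 and 20 counts in ESCs (0.833, 0.608 and 0.328 RPKM) and 1, 6 and 2 counts in NPs, with a ratio of 0.0913 and a 95% counting interval from 0.0406 to 0.181. The filter kept it out of the test, and with no filter Hoxd13 and Hoxc12 were called lower beside Hoxc13, where 8.18% of all 31654 genes with a count were. The same fit called Hoxa9 and Hoxd9 higher beside the 26, where 8.51% of all genes were.

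Ranked by class, the anterior genes made up 10.3 ± 0.6% of the summed Hox RPKM of NPs, the central genes 62.4 ± 4.4% and the posterior genes 27.4 ± 3.9%. Hoxb9 alone gave 27.1% of the total, so the other 15 posterior genes together added little. The classes stood in another order in ESCs, where the posterior genes made up 74.2 ± 4.5% of a total of 5.44 ± 0.80 RPKM.

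Most tested transcripts without a known protein in the clusters were also higher in NPs. Of 18 noncoding and antisense transcripts of the clusters in the tables, 12 were tested. In NPs 8 were called higher and 1 lower, where 12.4% and 9.98% of all tested genes were. The median log2 fold change was 8.65 against 0.03 over all genes (a median log2 ratio of summed counts of 7.90 with the 5 transcripts at 0 in ESCs set to the floor). As for the Hox genes, the filter let most of these 12 in through their NP level, so the count and the medians do not describe all 18. Hoxb5os, antisense to Hoxb5, had 0 counts in ESCs and TET TKO ESCs and 304, 422 and 397 RPKM in NPs, more than Hoxb5 itself. Hotairm1, a noncoding transcript of the Hoxa cluster, measured 0.183, 0.0893 and 0.0397 RPKM in ESCs and 34.8, 24.1 and 22.5 RPKM in NPs (log2 fold change 7.97 ± 0.41). Haglr, antisense in the Hoxd cluster, rose by a log2 fold change of 5.80 ± 0.37, from at most 0.317 to at least 9.15 RPKM. Hotair, the antisense transcript between Hoxc11 and Hoxc12, had 0 counts in all 9 libraries, and Hottip, beyond Hoxa13, had 2 counts over all 9. Halr1, which lies outside the 3′ end of the Hoxa cluster, was the transcript called lower, at 12.9, 11.8 and 9.74 RPKM in ESCs and 2.30, 3.10 and 4.09 RPKM in NPs (log2 fold change −1.86 ± 0.28). The kit kept strand but the reads were counted without it, so reads of a Hox gene and of an antisense transcript outside their shared exons cannot be told apart by strand.

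The genes beside the clusters did not move as a block. Of 8 tested neighbours, 2 were called higher and 1 lower in NPs, with a median log2 fold change of −0.10. Of all tested genes, 12.4% were called higher and 9.98% lower, so with so few neighbours no shift is read from these counts. Skap2, beside the Hoxa cluster, went from 2.13, 2.29 and 2.16 to 12.2, 7.94 and 8.60 RPKM (log2 fold change 2.11 ± 0.17), and Smug1, beyond Hoxc4, rose by 2.95 ± 0.22. Ttll6, next to Hoxb13, fell from 6.46, 6.52 and 5.42 to 0.438, 0.341 and 0.325 RPKM (log2 fold change −4.07 ± 0.22). Lnpk and Mtx2, which flank the Hoxd cluster, were not called.

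PBX and MEIS proteins, homeodomain factors of the TALE class, bind DNA together with HOX proteins. In NPs 7 of 9 tested TALE genes were called higher, where 12.4% of all tested genes were, with a median log2 fold change of 3.03. Meis1 went from 0.0982, 0.148 and 0.0734 to 12.3, 15.8 and 13.7 RPKM (log2 fold change 7.02 ± 0.24), and Meis2 rose by 5.90 ± 0.24. Pbx4 and Pknox1 were not called. Of 16 tested genes of retinoic acid signalling and the Cdx family, 9 were called higher and 1 lower, with a median log2 fold change of 3.89. The shares of all tested genes were 12.4% higher and 9.98% lower. Cyp26b1, which breaks down retinoic acid, rose by a log2 fold change of 10.68 ± 0.43 to 158, 83.6 and 93.9 RPKM, Cyp26a1 by 8.83 ± 0.39 and the receptor gene Rarb by 8.79 ± 0.37. The receptor gene Rarg was called lower, at 69.2, 74.2 and 41.7 RPKM in ESCs and 12.9, 8.94 and 4.63 RPKM in NPs. The Cdx genes, which activate central Hox genes in the trunk and are named here after their values were seen, were not called by edgeR. Cdx2 measured 1.83, 0.510 and 1.76 RPKM in NPs (log2 fold change 3.06 ± 0.76, edgeR adjusted p = 0.0074) and was called higher by DESeq2, and Cdx4, with 0 counts in all NP libraries, was not tested.

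Chromatin regulators of the clusters changed in both directions. Of 14 tested Polycomb side genes, 5 were called higher and 4 lower in NPs. For this and the other lists of this paragraph, the shares of all tested genes called were 12.4% higher and 9.98% lower. Cbx8 (log2 fold change 3.23 ± 0.27) and Bmi1 (2.32 ± 0.38), components of Polycomb complex 1, were among those that rose. Cbx7 (−3.30 ± 0.36) and Phc1 (−2.47 ± 0.26), also of complex 1, and Eed (−1.88 ± 0.17), a core component of complex 2, fell. Of the 9 tested Trithorax side genes 0 were called in edgeR or DESeq2, while at an unadjusted p under 0.05 in edgeR 3 were higher and 6 lower, with fold changes under 3. The share of all genes at that unadjusted limit is not given here. Of the 3 tested hindbrain regulators, 2 were called higher. Of 4 tested forebrain and midbrain genes, Otx2, which marks the head anterior to the Hox domains, fell by 5.72 on the log2 scale and Emx2, a forebrain gene, was called higher, from at most 0.0152 RPKM in ESCs to 1.78, 5.91 and 1.44 RPKM. Of 6 tested neuron markers, 3 were called higher and 1 lower.

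In TET TKO ESCs no Hox gene reached a mean of 1 RPKM, and most were near 0 as in ESCs. Hoxc13 was the only member above the filter and it was not called (log2 fold change −2.06 ± 0.44, edgeR adjusted p = 0.0106), so 0 of 39 were called, where 0.847% of all 13939 tested genes were called higher and 1.29% lower. Hoxc13 had an unadjusted p under 0.05 in edgeR, as 1 of 1 tested, and DESeq2 called it lower. The summed Hox level was 2.46, 2.75 and 3.50 RPKM in the TET TKO libraries, below all 3 ESC libraries at 4.54 to 6.06 RPKM. With no filter, where 1.7% of all 33796 genes were called higher and 2.04% lower, 38 Hox genes were fitted, 0 were called higher and 2 lower. These were Hoxc13 (log2 fold change −1.95 ± 0.40, edgeR adjusted p = 9.3e-04) and Hoxc12 (log2 fold change −4.60 ± 0.83, edgeR adjusted p = 2.6e-04).

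**Figure D5:**
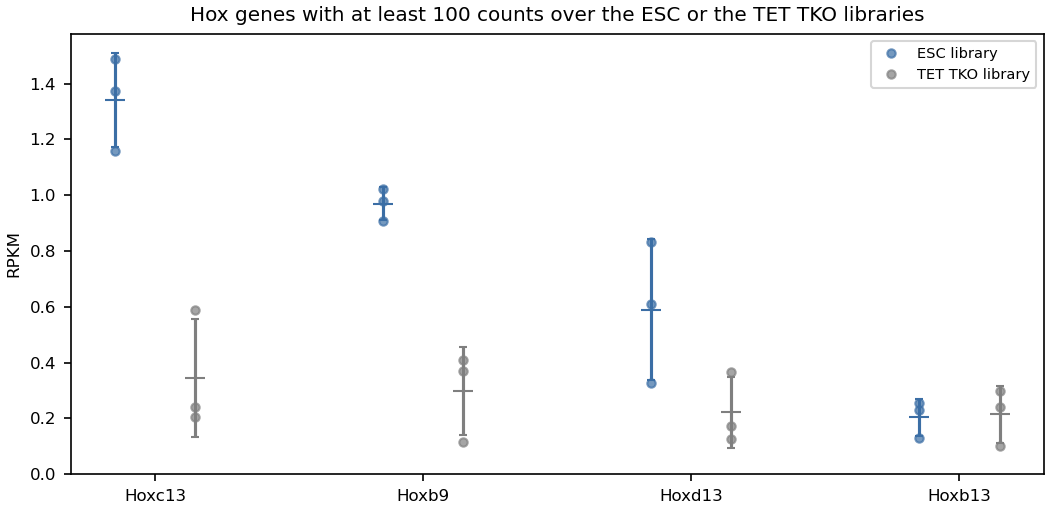
RPKM in each ESC and TET TKO library (points), with the mean and SD (bars, n = 3), of 4 Hox genes with at least 100 counts over the ESC or the TET TKO libraries. Hoxc13 and Hoxb9 lie lower in all 3 TET TKO libraries, while Hoxd13 and Hoxb13 overlap.

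Among the Hox genes with most reads in the pluripotent cells were 4 posterior members. Hoxc13 measured 1.37, 1.49 and 1.16 RPKM in ESCs and 0.242, 0.205 and 0.589 RPKM in TET TKO ESCs. Hoxb9 measured 1.02, 0.907 and 0.980 RPKM in ESCs and 0.116, 0.408 and 0.369 RPKM in TET TKO ESCs (log2 fold change −1.71 ± 0.42 with no filter, edgeR adjusted p = 0.0044). For both genes the groups did not overlap. Hoxc12 had 5, 8 and 19 counts in ESCs and 0, 1 and 3 counts in TET TKO ESCs, which were sequenced more deeply. Hoxd13 measured 0.833, 0.608 and 0.328 RPKM in ESCs and 0.172, 0.367 and 0.126 RPKM in TET TKO ESCs, and the groups overlapped (log2 fold change −1.42 ± 0.46 with no filter, edgeR adjusted p = 0.032). Hoxb13 measured 0.300, 0.102 and 0.242 RPKM against 0.256, 0.228 and 0.129 RPKM in ESCs, and the groups overlapped.

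Over the 32 Hox genes for which a ratio of summed counts could be given, 20 were lower and 12 higher in TET TKO ESCs. Their median log2 ratio was −0.99. Most genes on the higher side had counting intervals that included a ratio of 1, such as Hoxb13 (0.721 to 1.68). Hoxb4 (1.07 to 4.90) was an exception. On the lower side the intervals of many genes excluded 1, among them Hoxb9 (0.248 to 0.381) and Hoxd13 (0.283 to 0.490). Others on that side included it, such as Hoxc4 (0.425 to 1.20). These intervals cover counting error only. Hoxb5 and Hoxb6, with 0 counts in ESCs and 4 in TET TKO ESCs, were given no ratio. Hoxc11, with 8 and 0 counts, was counted as lower. The median log2 fold change of all genes in the fit without a filter was 0.12. It is another measure over other genes, so the medians cannot be compared and no shift of the Hox genes as a set is read from them. All 3 TET TKO libraries lay below every ESC library for 7 of the 34 Hox genes above the floor (Hoxa9, Hoxa10, Hoxb9, Hoxc11, Hoxc12, Hoxc13 and Hoxd4), against 17.4% of all genes, and above every ESC library for 2 (among them Hoxb6, with 1, 2 and 1 counts), against 23.3% of all genes. By class, whether or not the interval included 1, 11 of 15 posterior genes with a ratio were lower, 7 of 11 central genes and 2 of 6 anterior genes. When the TET TKO libraries were thinned to the ESC depth, Hoxc13 and Hoxb9 were both tested and neither was called (log2 fold changes −1.84 ± 0.36 and −1.86 ± 0.39, edgeR adjusted p = 0.0070 and 0.0094), and 15 Hox genes had more than 3 counts over the group, against 28 in ESCs. Over the 8 lists of noncoding transcripts, neighbours, cofactors and regulators, 0 of 51 tested genes were called in TET TKO ESCs by edgeR, 22 had an unadjusted p under 0.05 and DESeq2 called 2. The share of all tested genes at that unadjusted limit is not given here, so the 22 cannot be read as a shift of these lists. Of the marker lists, the pluripotency gene Zfp42 was called lower (log2 fold change −2.70 ± 0.16) and the mesoderm gene Hand1 higher (4.18 ± 0.44).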

How the data were processed

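RNA was sequenced from 3 groups of 3 cultures (TruSeq stranded mRNA, single-end reads). The authors trimmed reads with Trimmomatic 0.38, aligned them with STAR 2.6.1b to GRCm38 and deposited raw counts per gene from featureCounts 1.6.2, counted without strand on exons of Ensembl 89, where reads on exons of several genes are left out by default. The methylation files of the series were not used here. Gene symbols came from a name table (51633 of 51912 genes matched). All columns of counts matched a sample (0 did not).

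From the counts, groups were compared with edgeR 4.0.16 (R 4.3.3) after TMM scaling, with genes of at least 1 RPKM in at least 1 library of the 2 groups, using its quasi-likelihood F-test and p-values adjusted after Benjamini and Hochberg over all tested genes, with the study's thresholds (fold change of at least 3, adjusted p under 0.001). The SE is the log2 fold change over the root of F, an approximation. With few counts in ESCs it may understate the uncertainty. In DESeq2 the SE for NPs against ESCs was 0.67 for Hoxb8 and 1.21 for Hoxb4, against 0.37 and 0.64 in edgeR. For Hoxb9, with more counts in ESCs, it was 0.24 in DESeq2 and 0.25 in edgeR. Depth ran from 20519702 to 93210102 counts, and counting intervals (exact binomial on summed counts, 95%) and the floor of 3 counts cover counting error only. Replicates are called biological in the study. The labels do not say whether libraries of the same number belong together, and no block was used in the reported fit. Correlations of deviations between same-numbered libraries ran from −0.159 to 0.009 for NPs and −0.106 to 0.365 for TET TKO ESCs. Between different numbers they ran from −0.125 to 0.153 and from −0.433 to 0.231, so pairing is not settled for TET TKO ESCs. The fit was tested on simulated data. Some items are not reported here. Values in every library are given for those with a mean of at least 1 RPKM in any group and for called genes, others by ranges or counts. From the other lists the called genes with the largest change, at most 3 in each direction, were eligible. The members and lists were chosen with earlier results of these data known. Sequences were read from GRCm38.p6 and RefSeq. Alternatives were DESeq2 1.42.0, other filters, scalings and thresholds, a fit of all 3 groups, a block on the replicate number, thinning and leaving out each library. Other calculations used Python 3.11.15, numpy 2.4.6, pandas 2.3.3 and scipy 1.17.1, with matplotlib 3.10.9 for figures.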

Additional observations from a re-analysis of the deposited data

How the results depend on the processing

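For NPs against ESCs, the number of Hox genes called higher ran from 25 to 28 under all alternatives (25 to 26 with a library left out), and the number called lower was 1 except with no filter on low values (3) and with a library left out (0 to 1). All genes called higher numbered 1880, and 3276 at an adjusted p under 0.05 with a fold change of 2. All genes called lower numbered 1516, with 2588 with no filter, 2455 with no fold change limit and 2938 at an adjusted p under 0.05 with a fold change of 2. With a library left out these ran from 1386 to 1801 and from 1085 to 1583. For TET TKO ESCs, 0 Hox genes were called higher under every alternative, and Hox genes called lower numbered 1 in DESeq2, 2 with no filter and 1 at an adjusted p under 0.05 with a fold change of 2. All genes called higher and lower (118 and 180) numbered 404 and 506 in DESeq2, 574 and 689 with no filter, 236 and 220 with no fold change limit, 1010 and 1073 at an adjusted p under 0.05 with a fold change of 2, and 12 to 115 and 38 to 179 with a library left out. The cause of these shifts was not tested, beyond the fewer libraries, the wider filter or the looser threshold. The replicate block gave 26 Hox genes higher and 1 lower in NPs (1856 and 1503 of all genes) and 0 and 0 in TET TKO ESCs (255 and 334 of all genes). Whether the replicate numbers link libraries is not stated in the labels.

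The Hox genes expressed in ESCs (1) numbered 3 at 1 CPM, 3 at 0.5 RPKM, 0 at 2 RPKM and 1 to 2 with a library left out, and those in TET TKO ESCs (0) numbered 1 at 1 CPM and 1 at 0.5 RPKM. In NPs the Hoxd share of 3.59% was 4.37% in CPM and 1.42% without Hox genes with over 50% of exonic bases shared, and the anterior share of 10.3% was 13.5% and 7.76%. Of 391 alternative log2 fold changes of tested Hox genes in NPs, 381 kept their side of the threshold, 7 (Hoxc9 and Hoxc13) lost and 3 (Hoxd9) gained the call, and 0 changed sign. Hoxc13 in TET TKO ESCs gained a call in 3 of 15. Depth limits what can be said of the 5 Hox genes at or under 3 counts in both ESCs and TET TKO ESCs. The ratios of summed counts with a library left out were added after seeing the data.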
